A study of Mus musculus with 8 samples.

Results

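The genes described here make the lipids of sebum and of the skin surface. They are 39 named mouse genes for fatty acid synthesis, desaturation, elongation, wax ester and triglyceride formation, lipid droplets and the regulation of sebocytes, the lipid-filled cells of the sebaceous gland. A gene was measured through the probe set that the platform annotation gives its symbol alone and that had the highest mean over the arrays. That rule found 37 of the 39; the annotation did not give Soat1 or Acsl1 a probe set of their own, and they are not analysed here. Only Acaca had more than 1 such probe set. The whole array holds 19938 genes named in this way.

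Levels come from 8 Affymetrix whole-transcript arrays, with 2 genotypes, 2 sorting antibodies and 2 fractions each giving 1 array. All mice were CD1, of both sexes and 8 weeks old. They were wild type or carried the K14Snail transgene, which expresses the transcription factor Snail from the promoter of keratin 14, a gene of basal keratinocytes. Keratinocytes released from back skin by trypsin were selected magnetically with an anti-CD34 antibody, which marks cells of the hair follicle bulge, or with Mts24, an antibody that recognises the Plet1 protein of the upper follicle, and the bound (positive) and unbound (negative) cells were both profiled. Each CD34 array holds cells pooled from 11 mice and each Mts24 array cells pooled from 9 mice, and the labels do not say whether the positive and negative cells of a sort came from the same mice. They are called 1 pool here because their stated sizes match. No group has a second array. Where samples are whole sorted populations, fewer cells of a type and less RNA per cell cannot be told apart.

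Values are the deposited log2 levels, on which a difference of 1 is a factor of 2. The arrays have similar medians, from 7.32 to 7.42. Tests were limited to the 10720 genes with a level of 7.70 or more, the median over all genes, in 2 or more arrays. Of the 37 members 30 passed. The 7 others, Scd4, Fads6, Awat1, Awat2, Dgat2l6, Mogat1 and Plin5, are given by level only. Cidea, Mc5r and Hsd3b6 passed only through wild type arrays, so their presence among the tested genes depends on their being high there. Elovl3 reached 7.70 in only 1 K14Snail array, Mts24 positive at 7.71, so it too passed only because of its wild type levels. The labels of the arrays were checked on the transgene and the sorting antigens. Snai1, which encodes Snail, read 7.86 to 8.16 in the wild type arrays and 10.84 to 11.04 in the K14Snail arrays. Cd34 read 6.12 and 6.27 in the CD34 negative arrays against 13.57 and 13.29 in the CD34 positive arrays. Plet1 read 9.91 and 9.16 in the Mts24 negative arrays against 12.88 and 12.64 in the Mts24 positive arrays. Neither transcript was confined to its own sort. Cd34 read 10.03 to 12.12 in the Mts24 arrays, and Plet1 read 11.15 to 11.82 in the CD34 arrays. Krt14 and Krt5, defining markers of basal keratinocytes, read 13.28 to 13.87 in all 8 arrays.

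Sebocytes arise from progenitors in the upper hair follicle and die to release their contents as sebum. They build fatty acids from cytosolic acetyl-CoA, desaturate them, lengthen them, reduce part of them to fatty alcohols and join these into wax esters, which are stored with triglycerides and sterol esters in droplets until release. The epidermis uses some of the same enzymes for the ceramides and free fatty acids of its barrier. SREBP proteins, with the CCAAT-binding factor NF-Y, drive many of the synthesis genes, PPAR gamma drives sebocyte maturation, and the melanocortin receptor encoded by Mc5r is known for its role in sebum production.

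Promoters of 5 members are shown because the results turn on these genes: Scd3, Far2 and Hsd3b6 were among the members with the lowest levels in K14Snail CD34 arrays relative to wild type, Elovl4 had a low level in 1 K14Snail array, and Fasn fell in both positive fractions. Each sequence is the 250 bases before the start site, from RefSeq on GRCm38.p6, written 5′ to 3′ on the strand of the gene, with capitals at any match to CAGGTG, the E-box that Snail binds, to CCAAT, the NF-Y motif, or to TCACNCCAC, an SREBP motif, on either strand.
Scd3, chr19:44203038-44203287, plus strand: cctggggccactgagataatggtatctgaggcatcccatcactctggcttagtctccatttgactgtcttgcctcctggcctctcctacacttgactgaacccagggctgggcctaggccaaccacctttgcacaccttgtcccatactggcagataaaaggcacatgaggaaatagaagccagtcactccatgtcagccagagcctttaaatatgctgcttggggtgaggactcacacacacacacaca
Far2, chr6:148047166-148047415, plus strand: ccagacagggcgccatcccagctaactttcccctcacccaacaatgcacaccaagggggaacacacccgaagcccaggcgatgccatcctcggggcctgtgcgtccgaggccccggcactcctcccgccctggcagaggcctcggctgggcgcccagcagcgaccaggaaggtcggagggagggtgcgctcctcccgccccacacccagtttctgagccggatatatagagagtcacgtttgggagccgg
Hsd3b6, chr3:98814444-98814693, minus strand: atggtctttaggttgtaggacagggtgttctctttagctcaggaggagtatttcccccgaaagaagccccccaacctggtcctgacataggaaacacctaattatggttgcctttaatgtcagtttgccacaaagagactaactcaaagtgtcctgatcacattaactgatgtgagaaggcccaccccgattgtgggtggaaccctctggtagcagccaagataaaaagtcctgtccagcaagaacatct
Elovl4, chr9:83806306-83806555, minus strand: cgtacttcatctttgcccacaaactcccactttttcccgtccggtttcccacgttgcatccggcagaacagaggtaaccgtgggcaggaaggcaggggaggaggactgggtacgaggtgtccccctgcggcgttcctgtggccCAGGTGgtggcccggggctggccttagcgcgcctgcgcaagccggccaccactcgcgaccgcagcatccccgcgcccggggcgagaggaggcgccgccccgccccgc
Fasn, chr11:120824548-120824797, minus strand: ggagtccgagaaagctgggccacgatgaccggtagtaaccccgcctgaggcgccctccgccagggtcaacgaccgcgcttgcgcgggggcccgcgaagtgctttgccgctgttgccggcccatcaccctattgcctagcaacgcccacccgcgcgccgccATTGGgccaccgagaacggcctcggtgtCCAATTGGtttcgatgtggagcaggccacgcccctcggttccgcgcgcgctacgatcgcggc

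The Scd3, Far2 and Hsd3b6 windows hold none of these letters. The Elovl4 window holds CAGGTG, starting at -107 from the start site. The Fasn window holds 3 CCAAT matches, starting at -90, -62 and -59; the last 2 overlap by 2 bases on opposite strands. RefSeq windows were given for 30 of the 39 named members, 40 windows in all because some genes have several start sites. Fa2h, Elovl3, Mc5r and Cidea were among the members without a window. CAGGTG was in 8 of the 40 (20.0%) against 17.2% of 32851 windows of all genes, CCAAT in 18 (45.0%) against 33.8%, and TCACNCCAC in 1 (2.5%) against 1.05%. The 1 member window with TCACNCCAC was that of Acsl1, which was not analysed. These shares are counts of letters and say nothing of binding.

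The first comparison asks how K14Snail and wild type keratinocytes differ. Fa2h, Scd3, Far2, Hsd3b6, Elovl3, Mc5r, Cidea and Awat1 were lower in K14Snail cells by at least 1 on the log2 scale in both CD34 fractions, between 2.13-fold and 17.5-fold, less so in Mts24 negative cells, and, except for Awat1, least in Mts24 positive cells. Averaged over the 4 fractions, no member passed limma's test after Benjamini-Hochberg adjustment over all 10720 genes. The levels in every array follow, first for wild type and then for K14Snail, each time with the CD34 sort before the Mts24 sort and the negative before the positive fraction.

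Fa2h, the fatty acid 2-hydroxylase that makes the hydroxylated fatty acids of sphingolipids and sebum, read 10.56, 11.05, 9.87 and 9.50 in wild type and 7.22, 7.37, 8.35 and 8.86 in K14Snail. Every K14Snail array lay below every wild type array, and the gap was widest in the CD34 sort, at 10.1-fold in negative and 12.8-fold in positive cells. The mean difference was -2.29 ± 0.52 (limma's standard error, 4 pairs of arrays), rank 3 from the lowest of all genes tested. Its adjusted p was 0.0825 by limma, or 0.125 with no pool block. If both fractions of a sort came from the same mice, the 4 pairs are not 4 independent samples. The genotype errors given here and below may then be too small. For Fa2h the difference was -3.51 over the CD34 fractions and -1.08 over the Mts24 fractions. Scd3, a stearoyl-CoA desaturase known from the sebaceous gland, read 9.96, 11.03, 9.09 and 8.95 in wild type and 7.28, 6.90, 7.80 and 8.00 in K14Snail. The groups did not overlap, the gap was 6.39-fold in CD34 negative and 17.5-fold in CD34 positive cells, and the mean difference was -2.26 ± 0.51 (adjusted p = 0.0815, limma). Far2, a fatty acyl-CoA reductase that makes the alcohols of wax esters, read 10.37, 11.17, 9.60 and 9.52 in wild type and 7.04, 7.60, 8.24 and 9.10 in K14Snail. These groups did not overlap either, although the K14Snail Mts24 positive array came within 0.42 of its wild type partner. The mean difference of Far2 was -2.17 ± 0.55 (adjusted p = 0.0991, limma).

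**Figure D1:**
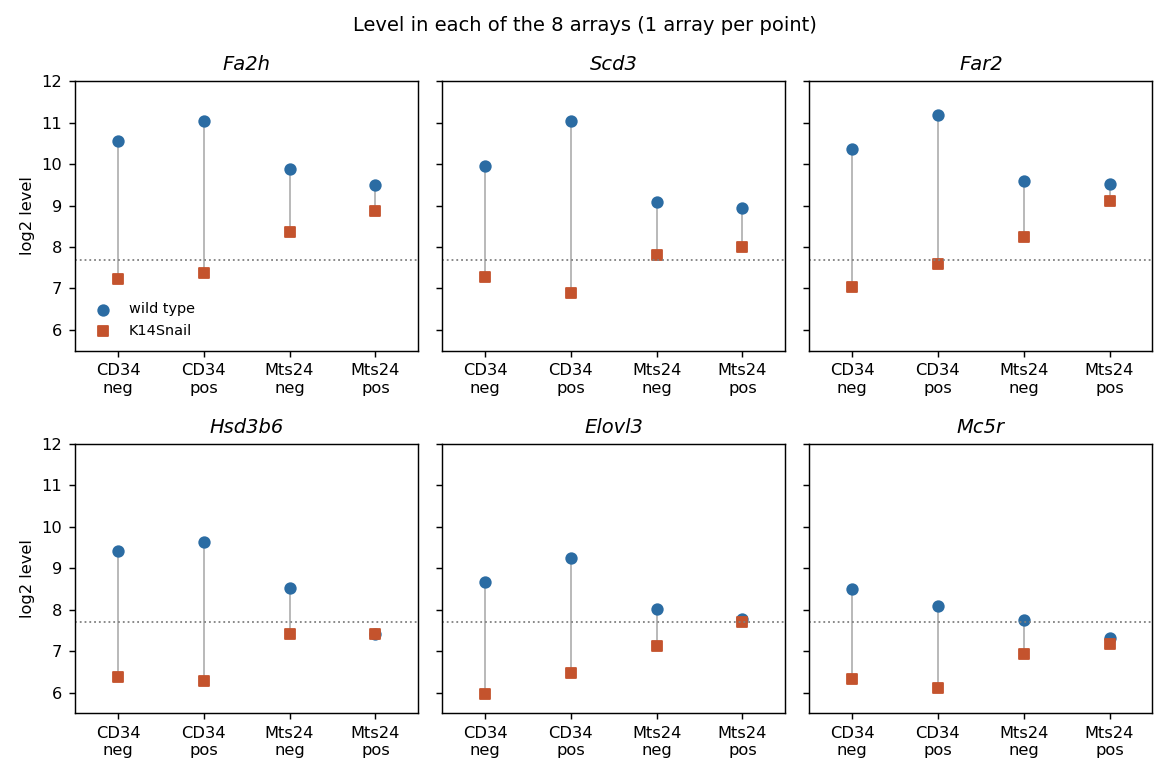
Log2 level (vertical axis) of Fa2h, Scd3, Far2, Hsd3b6, Elovl3 and Mc5r in each of the 8 arrays, 1 point per array, with wild type and K14Snail side by side for each sorted fraction. The dotted line marks 7.70, the level used to choose tested genes. The gap between genotypes is wide in both CD34 fractions, smaller in Mts24 negative cells and smallest in Mts24 positive cells, where Hsd3b6 read 7.42 in both genotypes.

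Hsd3b6, a 3 beta-hydroxysteroid dehydrogenase of steroid synthesis, read 9.41, 9.62, 8.52 and 7.42 in wild type and 6.38, 6.29, 7.41 and 7.42 in K14Snail. It was 8.14-fold and 10.1-fold lower in the CD34 fractions and level in Mts24 positive cells, so the groups touched there. The mean difference was -1.87 ± 0.57 (adjusted p = 0.127, limma). Elovl3, an elongase of saturated and monounsaturated very long chains known from sebaceous glands, read 8.66, 9.23, 8.02 and 7.78 in wild type and 5.97, 6.48, 7.13 and 7.71 in K14Snail. The K14Snail arrays all lay lower, with a mean difference of -1.60 ± 0.48 (adjusted p = 0.125, limma) that came down to -0.07 in Mts24 positive cells. Mc5r read 8.51, 8.10, 7.75 and 7.32 in wild type and 6.33, 6.11, 6.93 and 7.18 in K14Snail. It did not overlap between genotypes, and its mean difference was -1.28 ± 0.35 (adjusted p = 0.111, limma).

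Cidea, a lipid droplet protein that promotes droplet enlargement, read 8.23, 8.65, 7.55 and 7.45 in wild type and 6.78, 6.76, 7.13 and 7.62 in K14Snail. Its K14Snail Mts24 positive array was the only one above its wild type partner, and the mean difference was -0.90 ± 0.34 (adjusted p = 0.173, limma). Awat1, an acyl-CoA wax alcohol acyltransferase that makes wax esters, was not tested because only 1 array reached 7.70. Its levels were 7.43, 8.50, 6.71 and 7.21 in wild type and 6.34, 6.36, 6.45 and 6.32 in K14Snail, without overlap. For all 8 genes many K14Snail levels lay under 7.70, where a probe set's background is not measured separately, so the size of these differences is uncertain.

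Against the whole array, a difference of this kind was rare. Only 28 of 19938 genes (0.14%) were lower by at least 1 in both CD34 fractions, and 8 of the 37 members were, which is 21.6% of the members and 28.6% of those 28 genes. In CD34 negative cells 8 members were lower by at least 1 (0.266% of all genes) and 0 were higher (0.286%). In CD34 positive cells 11 were lower (1.4%), the same 8 together with Scd1, Elovl4 and Dgat2, and 1, Scd2, was higher (1.87%). In Mts24 negative cells 4 were lower (0.155%), namely Scd3, Far2, Fa2h and Hsd3b6, and 0 were higher (0.316%). In Mts24 positive cells 0 were lower (0.346%), and Scd2 and Fads1 were higher (0.963%). Over all 37 members the median difference was, in the same order of fractions, -0.22, -0.38, -0.15 and 0.08, against 0.03, -0.03, -0.03 and -0.03 over all genes. There is 1 array per group in a single fraction, so these counts have no replicate check. The members were chosen with earlier results of these data known, so their shares are no independent evidence of enrichment, here or below.

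The direction was the same in all 4 fractions for 13 members. Scd3, Fasn, Elovl3, Elovl4, Elovl6, Far2, Awat1, Dgat2, Fa2h, Acsbg1 and Mc5r were lower in each (11 of 37, against 13.0% of all genes), and Scd2 and Far1 were higher in each (2 of 37, against 12.3%). The K14Snail arrays all lay below the wild type arrays for 6 members, Scd3, Elovl3, Far2, Awat1, Fa2h and Mc5r, against 2.36% of all genes. In the limma fit 0 of 30 members passed at an adjusted p of 0.05, against 220 genes or 2.05% of those tested. At an unadjusted p under 0.05 (limma) there were 14 of 30 members, against 25.9% of all genes. Cidea, Mc5r, Hsd3b6 and Elovl3 are among the 14 and were tested only because they were high in wild type. No conclusion is therefore drawn from that count. The median member difference was -0.23 against 0.02 over all tested genes.

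**Figure D2:**
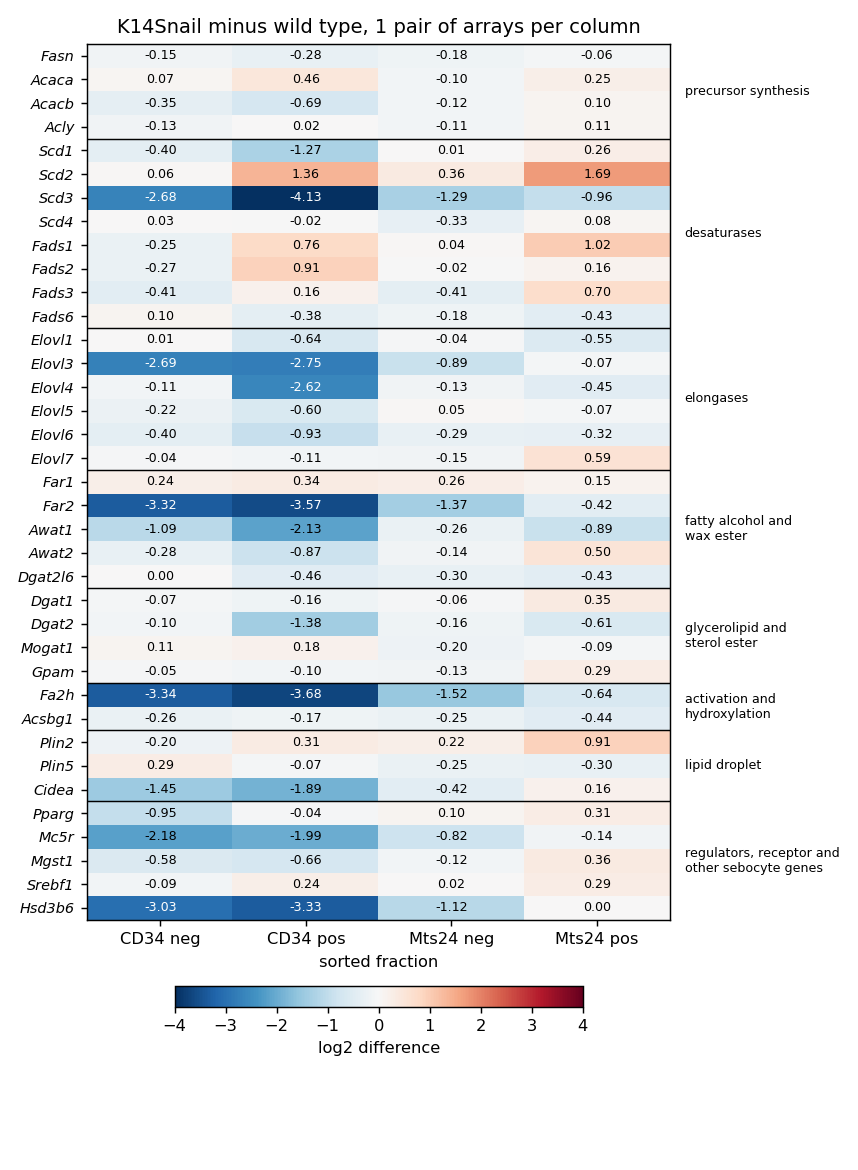
K14Snail minus wild type log2 difference (colour) for the 37 members (rows, grouped by role) in the 4 sorted fractions (columns), 1 array per genotype and fraction. The strongest negative values stand in the CD34 columns for Scd3, Elovl3, Far2, Fa2h, Mc5r and Hsd3b6, and Elovl4 stands out in CD34 positive cells alone at -2.62.

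The differences were unequal between the 2 sorts, and that inequality was tested as an interaction of genotype with sorting marker. For Hsd3b6 the genotype difference was -3.18 over the CD34 fractions and -0.56 over the Mts24 fractions, and the difference between these was -2.62 ± 0.40. Far2 gave -3.45 and -0.89, a difference of -2.56 ± 0.35, and Fa2h gave -3.51 and -1.08, a difference of -2.43 ± 0.34. Scd3 differed by -2.28 ± 0.51, Elovl3 by -2.24 ± 0.30, Mc5r by -1.60 ± 0.26 and Cidea by -1.54 ± 0.27. Far2, Fa2h and Scd3 held ranks 3 to 5 from the lowest of 10720 genes. No rank is read for Hsd3b6, Mc5r, Cidea and Elovl3, which were tested only because they were high in wild type. No gene of the array passed this test (0.0%, limma with 2 residual degrees of freedom), and these 7 members each had an adjusted p of 0.917. At an unadjusted p under 0.05 (limma) there were 10 of 30 members, against 4.07% of all genes. Hsd3b6, Mc5r, Cidea and Elovl3 are among the 10, so no conclusion is drawn from that count. Within a sort each genotype has mice of its own, pooled, so a difference between mouse pools and a difference between genotypes cannot be told apart there.

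**Figure D3:**
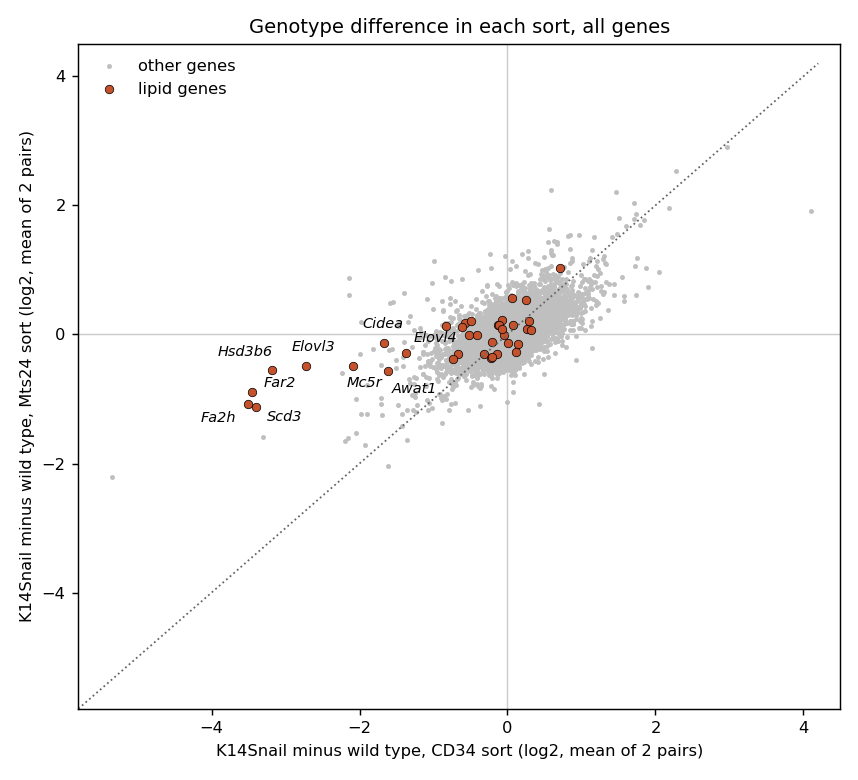
Each point is a gene, placed by its K14Snail minus wild type log2 difference averaged over the CD34 fractions (horizontal axis) and over the Mts24 fractions (vertical axis). Members are orange, other genes grey, and the dotted line marks equal differences. Fa2h, Far2, Scd3, Hsd3b6 and Elovl3 lie far to the left of the cloud and above the line, at -3.51 to -2.72 in the CD34 sort and -1.12 to -0.48 in the Mts24 sort.

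Some other values moved with these 8 members and others did not. Cyp2g1, a cytochrome P450 and the gene with the lowest difference in both CD34 fractions, read 11.13, 11.29, 9.95 and 6.73 in wild type and 6.06, 5.66, 5.87 and 6.41 in K14Snail. Its differences were -5.07, -5.63, -4.08 and -0.32, the smallest again in Mts24 positive cells. Of the 6 other sebocyte genes on the platform that are no members, the lowest difference in any fraction was -0.44, for Prdm1 in CD34 positive cells. Krt79, a keratin of the sebaceous duct, differed by 0.29, 1.47, -0.13 and 0.28, Apoc1 by 0.12, 0.13, 0.05 and 0.15, and Ldhb by 0.06, 0.02, -0.28 and 0.51. The negative cells of the 2 sorts also differed. Far2 read 10.37 in CD34 negative and 9.60 in Mts24 negative wild type cells, and 7.04 against 8.24 in K14Snail cells. The sorts differ in antibody and in pool, so the 2 cannot be told apart there. The sexes were pooled in proportions not given. The Y-linked gene Uty was higher in K14Snail by 1.08, 0.66, 0.45 and 0.36 and Eif2s3y by 0.94, 0.46, 0.50 and 0.30, and Kdm5d differed by 0.87, 0.50, -0.21 and 0.26, lower in K14Snail Mts24 negative cells, while Xist differed by -0.06, 0.26, -0.17 and 0.07. The part of sex ratio or of the pools in the lower member levels was not tested. Adipocyte markers were low: 9 of 10 were on the platform, 2 of them passed the filter, their summed level was 9.57 to 9.89 (log2) in the CD34 arrays and 9.54 to 10.10 in the Mts24 arrays, and the defining genes Adipoq (4.77 to 4.96), Fabp4 (4.92 to 5.03) and Lep (5.35 to 5.61) lay near the bottom of the scale in all 8 arrays. Others on that list varied: the fatty acid transporter gene Cd36 differed by -1.20, -1.49, 0.08 and 0.29 and is 1 of the 28 genes lower in both CD34 fractions, at levels of 5.17 to 6.84, Adig differed by -1.03 in CD34 positive cells, and Lpl ranged from 6.91 to 8.59. The part of adipocytes in the member values was not tested.

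Among the remaining wax ester genes and Mogat1, Far1 was well above 7.70 and the others read low. Far1, the more widely used fatty acyl-CoA reductase, read 9.17, 10.05, 8.77 and 9.71 in wild type and 9.41, 10.39, 9.03 and 9.85 in K14Snail. It was slightly higher in K14Snail in each fraction, by 0.25 ± 0.05 (adjusted p = 0.0787, limma), so the 2 reductases differed in sign. Awat2 lay at 6.02 to 7.08, Dgat2l6 at 5.42 to 6.43 and Mogat1 at 5.64 to 5.90, all under 7.70 in every array. Awat1, Awat2 and Dgat2l6 are neighbouring acyltransferase genes on the X chromosome, and close relatives can share probe signal.

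The stearoyl-CoA desaturases, which place the double bond of oleate and palmitoleate, did not behave as a family. Scd1 was abundant throughout, at 13.17, 12.92, 13.13 and 12.18 in wild type and 12.77, 11.65, 13.14 and 12.44 in K14Snail. Its difference was -0.40 and -1.27 in the CD34 fractions and 0.01 and 0.26 in the Mts24 fractions, with a mean of -0.35 ± 0.24 (adjusted p = 0.384, limma). Scd2, the form of brain and many other tissues, read 10.88, 9.995, 11.43 and 9.39 in wild type and 10.94, 11.36, 11.80 and 11.09 in K14Snail. It was 1.36 and 1.69 higher in the positive fractions and 0.06 and 0.36 higher in the negative ones, a mean of 0.87 ± 0.24 (adjusted p = 0.115, limma). Scd4 lay between 5.54 and 6.21 and was not tested. The 4 Scd genes are related neighbours on chromosome 19, so signal shared between their probe sets is uncertain. Scd1, like Scd3, had its lowest level in K14Snail CD34 positive cells, while Scd2 had its highest differences in the positive fractions.

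**Figure D4:**
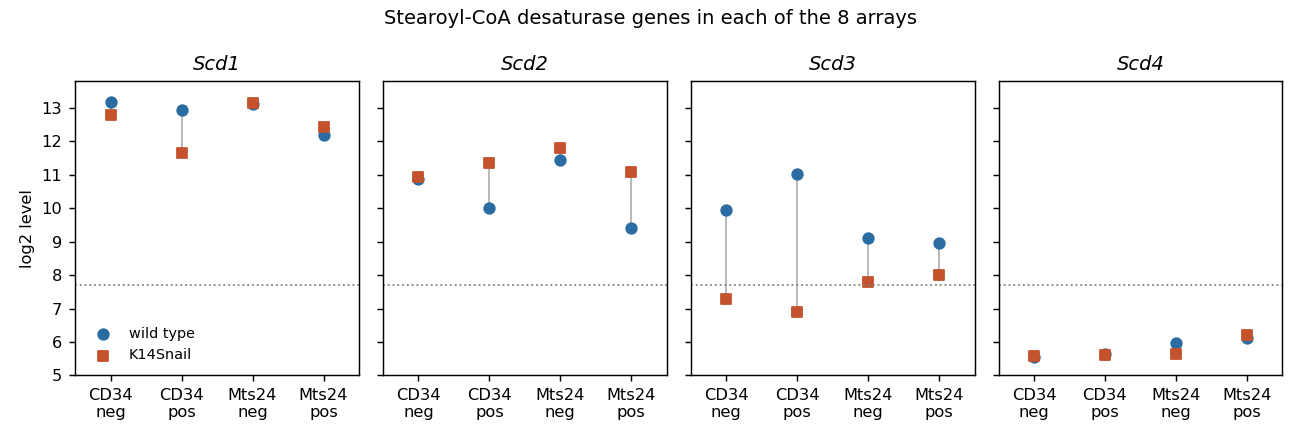
Log2 level (vertical axis) of Scd1, Scd2, Scd3 and Scd4 in each of the 8 arrays, 1 point per array, by sorted fraction and genotype. Scd3 is lower in K14Snail in all 4 fractions, Scd2 is higher in the K14Snail positive fractions (11.36 and 11.09 against 9.995 and 9.39), and Scd4 stays between 5.54 and 6.21.

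Fads1, Fads2 and Fads3 resembled Scd2 in the sign of their difference in positive cells, but the size was smaller. Fads1, the delta-5 desaturase, read 8.58, 8.94, 8.64 and 7.11 in wild type and 8.33, 9.70, 8.68 and 8.13 in K14Snail. Fads2, the delta-6 desaturase, read 8.07, 7.55, 8.41 and 7.13 in wild type and 7.80, 8.46, 8.39 and 7.28 in K14Snail. Fads3, their neighbour on the same chromosome, read 9.13, 8.65, 9.48 and 7.61 in wild type and 8.72, 8.81, 9.07 and 8.31 in K14Snail. In CD34 positive and Mts24 positive cells each was higher in K14Snail, Fads1 by 0.76 and 1.02, Fads2 by 0.91 and 0.16, and Fads3 by 0.16 and 0.70. In negative cells the differences lay between -0.41 and 0.04. The interaction of genotype with positive fraction was 1.32 ± 0.21 for Scd2 (adjusted p = 0.247), 1.00 ± 0.19 for Fads1 (adjusted p = 0.312), 0.84 ± 0.22 for Fads3 (adjusted p = 0.440) and 0.68 ± 0.29 for Fads2 (adjusted p = 0.682) by limma. No member and no gene of the array passed this test (0.0%), with 5 of 30 members at an unadjusted p under 0.05 against 7.88% of all genes. Without either CD34 positive array 3 members passed (Scd2, Fads1 and Fads3), and without either Mts24 positive array 7 did. Fads6 lay at 7.22 to 7.70 and was not tested.

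Myeloid and Langerhans cell markers moved with the higher levels of Scd2 and the Fads genes in positive K14Snail cells. Over 12 genes their median difference was 1.31 and 1.28 in the CD34 and Mts24 positive fractions and -0.53 and -0.10 in the negative ones, 0 of 12 were lower in either positive fraction, and Lyz2 was 3.32 and 3.22 higher there. Their summed level in positive cells was 11.81 and 11.78 (log2) in wild type and 13.26 and 13.43 in K14Snail. The part of these cells in the desaturase values was not tested.

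Among the elongases, Elovl4, which makes the ultra-long chains of barrier ceramides, stood out in 1 array. It read 13.10, 12.64, 13.46 and 12.21 in wild type and 12.99, 10.02, 13.33 and 11.76 in K14Snail, so that K14Snail CD34 positive cells were 6.16-fold lower and the other 3 pairs differed by -0.11, -0.13 and -0.45. Its mean difference was -0.83 ± 0.39 (adjusted p = 0.238, limma). Dgat2, which makes triglyceride from diacylglycerol, had the same shape at 12.34, 11.81, 12.90 and 11.86 in wild type and 12.24, 10.43, 12.74 and 11.26 in K14Snail. Elovl1, an elongase of saturated very long chains, read 12.66, 12.38, 13.12 and 12.72 in wild type and 12.68, 11.74, 13.08 and 12.16 in K14Snail. In negative cells these 3 genes were within 0.16 of wild type, and in positive cells each was lower. The interaction with positive fraction was -1.41 ± 0.76 for Elovl4, -0.86 ± 0.29 for Dgat2 and -0.58 ± 0.13 for Elovl1, with adjusted p of 0.762, 0.542 and 0.348 by limma.

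Suprabasal keratinocyte markers moved with these 3 genes. In CD34 positive cells all 8 on the platform were lower in K14Snail, with a median of -1.26 that included Krt1 at -1.50, Lor at -1.47 and Ivl at -1.33, and their summed level was 15.56 (log2) in wild type and 14.66 in K14Snail. In the other fractions their median was 0.00, 0.02 and -0.21. The epidermal barrier lipid genes, 18 of 19 of which were lower in CD34 positive K14Snail cells with a median of -1.16, moved likewise. The part of suprabasal cells in the values of Elovl4, Dgat2 and Elovl1 was not tested.

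Of the other elongases Elovl6, which lengthens palmitate to stearate, read 11.92, 11.77, 12.32 and 11.38 in wild type and 11.52, 10.85, 12.03 and 11.07 in K14Snail. It was lower in each fraction, by -0.48 ± 0.11 on average (adjusted p = 0.0822, limma). Elovl5, the elongase of polyunsaturated chains, read 10.67, 11.66, 10.71 and 10.31 in wild type and 10.45, 11.06, 10.76 and 10.24 in K14Snail. Its highest level was in wild type CD34 positive cells. Elovl7 read 11.08, 9.98, 11.19 and 10.65 in wild type and 11.04, 9.87, 11.04 and 11.24 in K14Snail, and its lowest levels were those of the CD34 positive arrays.

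None of the 4 enzymes that supply fatty acids passed for genotype. Acly, which makes cytosolic acetyl-CoA, read 11.04, 10.57, 11.30 and 10.32 in wild type and 10.91, 10.59, 11.19 and 10.43 in K14Snail. Acaca, the acetyl-CoA carboxylase that makes malonyl-CoA for synthesis, read 10.18, 9.51, 10.45 and 9.47 in wild type and 10.24, 9.97, 10.36 and 9.72 in K14Snail. Fasn, fatty acid synthase, read 11.10, 10.76, 11.33 and 10.37 in wild type and 10.95, 10.48, 11.15 and 10.30 in K14Snail. For all 3 the order of fractions was the same in both genotypes, negative above positive. Their genotype differences were -0.03 ± 0.06 for Acly, 0.17 ± 0.09 for Acaca and -0.17 ± 0.06 for Fasn. A second Acaca probe set lay lower, at 8.49 to 9.49. Acacb, the carboxylase tied to control of fatty acid oxidation, lay lower at 7.59 to 8.46, and differed between genotypes by -0.35 and -0.69 in the CD34 fractions and by -0.12 and 0.10 in the Mts24 fractions. Acaca was 0.46 higher in K14Snail CD34 positive cells.

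Gpam, the first acyltransferase of glycerolipid synthesis, read 10.50, 9.71, 10.69 and 9.80 in wild type and 10.45, 9.61, 10.56 and 10.09 in K14Snail. Srebf1, which encodes the SREBP-1 activators of these enzymes, read 10.41, 9.69, 10.27 and 9.66 in wild type and 10.32, 9.93, 10.29 and 9.94 in K14Snail. Both were high in negative and low in positive cells and level between genotypes, at 0.00 ± 0.08 and 0.11 ± 0.07. Acsbg1, an acyl-CoA synthetase, read 11.54, 10.50, 11.62 and 11.55 in wild type and 11.28, 10.33, 11.37 and 11.11 in K14Snail. Its K14Snail level was lower in each fraction, by -0.28 ± 0.06 on average (adjusted p = 0.0767, limma), and both CD34 positive arrays stood below all others.

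The remaining members had no common pattern. Mgst1, a microsomal glutathione transferase expressed in sebocytes, read 10.29, 10.95, 9.25 and 10.63 in wild type and 9.71, 10.29, 9.13 and 10.99 in K14Snail, and it was lowest in the Mts24 negative arrays. Plin2, the droplet coat protein of most cells, lay at 9.79 to 11.17 and was highest in K14Snail Mts24 positive cells. Pparg lay at 6.78 to 7.75, close to the filter, and differed by -0.95 in CD34 negative and -0.04 in CD34 positive cells. Dgat1, the other diacylglycerol acyltransferase, lay at 9.14 to 9.63, and Plin5 at 6.86 to 7.41.

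The submitters' design treats unbound cells as the controls of the bound cells, and the second comparison asks how the 30 tested members differed between bulge-marked CD34 positive cells and the rest. By role, 2 of 4 precursor enzymes, 2 of 3 glycerolipid enzymes, 1 of 6 elongases, Acsbg1 and Srebf1 fell in CD34 positive cells, 0 of 6 tested desaturases passed, and none of the 7 tested members with low K14Snail CD34 levels passed. Limma called 9 members: 7 fell, against 11.6% of all genes called lower, and 2 rose, against 12.1% called higher. Acsbg1 fell by 1.00 ± 0.10 (adjusted p = 0.0020, 2 pairs of arrays), Elovl7 fell by 1.14 ± 0.20 (adjusted p = 0.0120) and Gpam fell by 0.81 ± 0.13 (adjusted p = 0.0087). Dgat2 (-1.18 ± 0.32), Srebf1 (-0.55 ± 0.12), Fasn (-0.41 ± 0.09) and Acly (-0.40 ± 0.10) also fell, with adjusted p of 0.0472, 0.0261, 0.0290 and 0.0368 by limma. The Dgat2 difference was unequal between genotypes, at -0.54 in wild type and -1.81 in K14Snail. Far1 rose by 0.93 ± 0.09 (adjusted p = 0.0018) and Elovl5 rose by 0.80 ± 0.18 (adjusted p = 0.0268), and both did so in each genotype, Far1 by 0.88 and 0.97 and Elovl5 by 0.99 and 0.61.

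Elovl4 differed by -1.72 ± 0.65 without passing (adjusted p = 0.118, limma), from -0.46 in wild type and -2.97 in K14Snail. Fa2h (0.32 ± 0.88), Scd3 (0.34 ± 0.86), Far2 (0.68 ± 0.92) and Hsd3b6 (0.06 ± 0.96) had wide errors in this fit, which has a single term for genotype although their genotype difference was unequal between sorts. In wild type alone, with 1 array per fraction, Scd3 was 1.07, Far2 0.80, Elovl3 0.57 and Fa2h 0.49 higher in CD34 positive cells. The untested Awat1 was 1.06, Cidea 0.42 and Hsd3b6 0.22 higher, and Mc5r went the other way at -0.41. The sign of the fitted CD34 difference of Scd3, Far2, Fa2h and Hsd3b6 was negative without the wild type CD34 positive or the K14Snail CD34 negative array. With each pool as a fixed term, which pairs the fractions within a pool, Acly and Dgat2 lost the call (adjusted p = 0.0551 and 0.0720, limma). Only Far1 and Acsbg1 passed in all 21 alternative fits. The number of members called was 2 without either CD34 negative array, 5 without either Mts24 negative array, and 5 without the K14Snail CD34, wild type Mts24 or K14Snail Mts24 pool.

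The third comparison set Mts24 positive against Mts24 negative cells. Limma called 11 members: 9 fell, against 11.7% of all genes called lower, and 2 rose, against 11.1% called higher. Fasn fell by 0.91 ± 0.09 (adjusted p = 0.0039), Acly fell by 0.87 ± 0.10 (adjusted p = 0.0047) and Acaca fell by 0.81 ± 0.15 (adjusted p = 0.0175), so 3 of the 4 precursor enzymes were lower. The desaturases Fads3 (-1.31 ± 0.29) and Fads2 (-1.19 ± 0.28), the elongase Elovl6 (-0.95 ± 0.19), Dgat2 (-1.26 ± 0.32), Gpam (-0.68 ± 0.13) and Srebf1 (-0.48 ± 0.12) fell as well, with adjusted p between 0.0193 and 0.0421 by limma. Mgst1 rose by 1.62 ± 0.29 (adjusted p = 0.0157) and Far1 rose by 0.88 ± 0.09 (adjusted p = 0.0038). Scd2 (-1.38, adjusted p = 0.0628) and Elovl4 (-1.41) did not pass. The median of the 30 members was -0.47, against 0.02 over all genes, and in the CD34 comparison it was -0.10 against -0.03.

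Acly, Dgat2, Fasn, Gpam and Srebf1 passed as lower in both comparisons, and Far1 passed as higher in both. With each pool as a fixed term, Dgat2, Fads2 and Srebf1 lost the Mts24 call (adjusted p = 0.0637, 0.0553 and 0.0653, limma). The CD34 and Mts24 comparisons share no array, but they share 1 fit and its estimate of spread. Within the Mts24 comparison no member was called without either Mts24 pool, which leaves 1 pair of arrays, and 18 were called without either CD34 pool. Without a single Mts24 array the count was 3 to 6, and without either CD34 positive array it was 15. Markers of other cell types moved with the positive fractions: the median over T cell markers was -1.96 in the CD34 and -3.16 in the Mts24 comparison, over myeloid markers -1.04 and -1.39, and over suprabasal markers -0.76 and -0.64. All 6 tested T cell markers fell in both comparisons, and 1 and 4 of 11 myeloid markers fell. Of 8 suprabasal markers only Krt1 fell, in CD34 positive cells (-1.85), and Calml3 rose in both (1.79 and 0.84). Of 6 tested sebocyte genes that are no members 0 passed for CD34, and 4 rose in Mts24 positive cells: Defb6 (2.63), Krt79 (2.04), Ldhb (1.61) and Apoc1 (0.37). The part of any of these cells in the members' values was not tested.

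**Figure D5:**
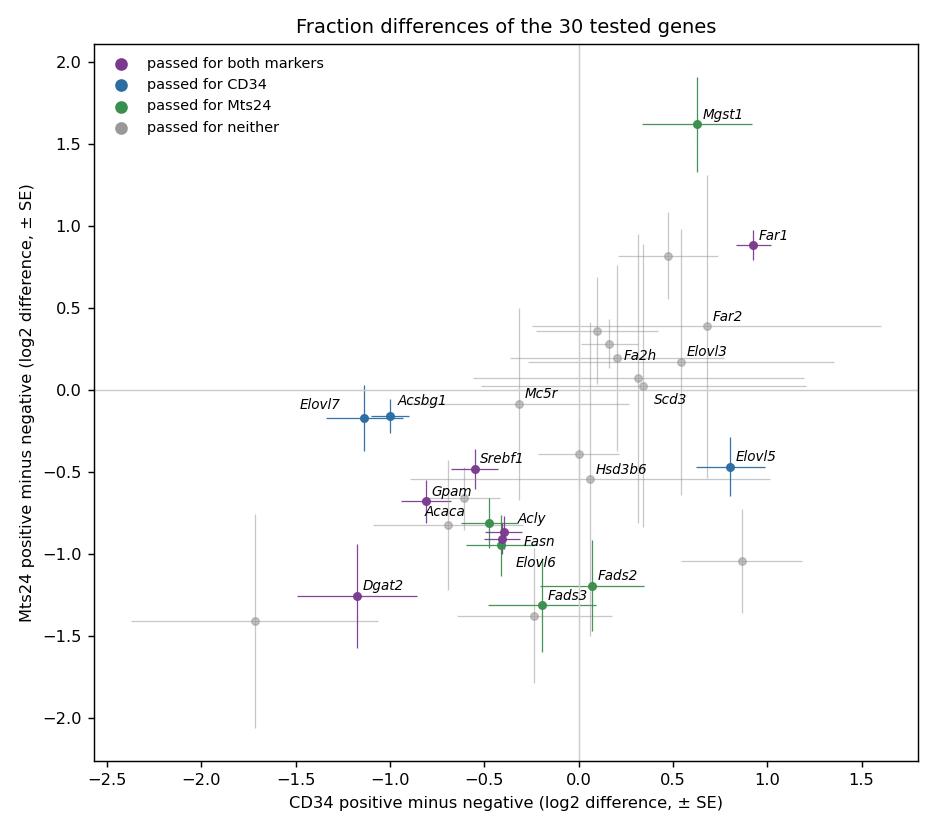
Positive minus negative log2 difference in the CD34 sort (horizontal axis) and the Mts24 sort (vertical axis) for the 30 tested members, each point the limma estimate over both genotypes with bars of 1 standard error. Far1 lies at 0.93 and 0.88, Elovl5 at 0.80 and -0.47, and Fasn, Acly, Gpam and Srebf1 lie below 0 on both axes.

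The difference between the 2 enrichments was tested directly. One member passed, Acsbg1 (1 of 30, against 4.08% of all genes), at -0.84 ± 0.14 (adjusted p = 0.0399, limma): it was lower in CD34 positive cells by 1.04 in wild type and 0.96 in K14Snail, and in Mts24 positive cells the differences were -0.06 and -0.25. Elovl5 gave 1.27 ± 0.26 (adjusted p = 0.0621, or 0.0402 without the pool block), Fads1 1.91 ± 0.45 (adjusted p = 0.0924), Fads2 1.26 ± 0.39 (adjusted p = 0.163) and Mgst1 -0.99 ± 0.41 (adjusted p = 0.288). Acsbg1 kept the call in 9 of 21 alternative fits and lost it without either Mts24 pool and with each pool as a fixed term (adjusted p = 0.0651, limma).

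The pathway lists beside the members were counted in the same fits. Of 19 genes of cholesterol synthesis, which shares its SREBP regulators with fatty acid synthesis, 6 fell in CD34 positive cells and 16 in Mts24 positive cells, against 11.6% and 11.7% of all genes called lower, and 0 passed for genotype. Sqle, the squalene epoxidase, fell by 1.01 in the first and by 1.55 in the second, Sc5d fell by 0.80 and 1.29, and Hsd17b7 fell by 1.02 and 1.16. Of 18 tested barrier lipid genes, 7 fell and 1 rose in CD34 positive cells and 6 fell in Mts24 positive cells, again against 11.6% and 11.7% lower and, for CD34, 12.1% higher, with 0 passing for genotype. They included Cyp4f39, a fatty acid omega-hydroxylase (-2.10 and -1.92), and Abca12, the lipid transporter of lamellar granules (-1.83 and -1.30).

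Fatty acid oxidation gave counts near the shares over all genes (11.6% lower and 12.1% higher for CD34, 11.7% and 11.1% for Mts24). Of 18 genes, 1 rose and 2 fell in CD34 positive cells, Cpt1c (0.82), Ppara (-1.67) and Cpt1a (-0.91), and 2 rose and 1 fell in Mts24 positive cells, Acads (0.59), Eci1 (0.39) and Cpt1a (-0.53). For genotype 1 of them passed, Hadhb of the mitochondrial trifunctional protein, at -0.39 (adjusted p = 0.0399, limma). Of 12 tested genes of lipolysis and droplets 0 passed for genotype, where Mgll, monoacylglycerol lipase, gave -1.01 (adjusted p = 0.0849, limma). Pnpla3 fell by 1.60 and 1.31 and Abhd5, an activator of triglyceride lipase, fell by 1.10 and 1.01 in the CD34 and Mts24 comparisons. Of 9 lipogenic regulators, Cebpb rose by 0.33 in K14Snail cells (adjusted p = 0.0435, limma), and Cebpa fell by 1.29 in CD34 positive cells, the only one to pass there. In Mts24 positive cells 3 regulators rose, among them Insig2 (1.38), which retains SREBP proteins in the endoplasmic reticulum, and Ppargc1b (0.67), and Cebpa (-0.74) and Srebf2 (-0.45) fell.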

How the data were processed

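RNA of sorted mouse keratinocytes was measured on 8 arrays. The deposited values are log2 levels per probe set that the authors made with RMA, per the submitters' processing notes; its version and the genome build are not given in the sources used here. RMA normalizes between arrays, so a shift shared by all genes is not seen. Of 28874 probe sets, 21789 have 1 gene symbol, 1621 several and 5464 none in the platform annotation, and only the first were used. For each of 19938 genes (999 with several probe sets) the probe set with the highest mean was kept. The number of arrays limits the precision.

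Models were fitted with limma 3.58.1 and statmod 1.5.0 in R 4.3.3. The main model had terms for fraction (4 levels) and genotype and, as a random block, the mouse pool, taken as shared by both fractions of a sort because the stated sizes match (consensus correlation -0.175), and left 3 residual and 2.78 prior degrees of freedom. Genotype by positive fraction and genotype by sorting marker (with no block) were added terms. Benjamini-Hochberg adjustment ran over 10720 genes, with a threshold of 0.05, and the script was checked on simulated data. With 1 array per group, p-values measure the spread between these arrays only. Because the consensus correlation was negative, the block did not widen the genotype errors for shared mice but made them smaller. With no pool block the adjusted p for genotype was higher for every tested member, such as 0.126 for Scd3 and 0.183 for Hsd3b6 by limma. The genotype calls given for Hadhb, Cebpb and the whole array come from the fit with the block. Single fractions were counted at a log2 difference of 1.

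Members and gene lists were chosen with earlier results of these data known. Levels in every array are given for members past the threshold in any comparison and for the 5 with the largest difference in each, and at most 4 genes are named per list; the sex-linked genes, Cyp2g1 and other single genes beside a result were named after their values were seen. Promoters came from RefSeq on GRCm38.p6. Alternatives covered the block (left out, or fixed), filter, scaling, probe set choice, prior variance, each array and each pool.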

Additional observations from a re-analysis of the deposited data

Results flagged for a closer look

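Several members differed between sorts or fractions in size or in sign, and 1 of these differences passed its test. Between the CD34 and Mts24 enrichments (positive minus negative), the difference passed limma's test for Acsbg1 at -0.84 (adjusted p = 0.0399), with lower levels in the positive cells of both sorts. It did not pass for Elovl5 at 1.27 (adjusted p = 0.0621) or Fads1 at 1.91 (adjusted p = 0.0924), both of which were higher in CD34 positive and lower in Mts24 positive cells in each genotype.

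The K14Snail minus wild type difference had opposite signs in positive and negative cells, in both sorts, for Acly (difference 0.19, adjusted p = 0.825), Fads2 (0.68, adjusted p = 0.682) and Fads3 (0.84, adjusted p = 0.440), and none of these passed limma's test. Between the CD34 and Mts24 sorts it had opposite signs for Scd1 (-0.97, adjusted p = 0.917) and Pparg (-0.70, adjusted p = 0.917), which did not pass either. For Scd1 the mean over fractions changes sign with the sort (0.13 over the Mts24 fractions alone).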

How the results depend on the processing

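The labels carry no replicate numbers. The pairing of fractions within a pool, with each pool as a fixed block (an alternative chosen after seeing the data), left 8 members called for CD34, 8 for Mts24 and 0 for the difference between enrichments. Of 180 member values (30 members, 6 comparisons), the 70 that were called, among the largest or printed were followed. Under settings other than a left-out array, 727 kept their side of the threshold, 53 lost the call, 10 gained it and 8 changed sign; with 1 array left out the counts were 457, 69, 22 and 12. The changes of sign touched 7 values, none of them called. For genotype, Gpam gave -0.030 after quantile normalization and -0.075 without either Mts24 pool, and Scd1 gave 0.13 without either CD34 pool. For CD34, Hsd3b6 gave -0.000571 after median centring and -0.092 without the wild type CD34 pool, where Scd3 gave -0.38; without the K14Snail CD34 pool Scd3 passed. With 1 array left out, values that changed sign ranged from -0.071 to 0.0045 for Acly and -0.090 to 0.043 for Gpam in genotype, and in CD34 from -0.79 to 1.43 for Fa2h, -0.46 to 1.82 for Far2, -1.12 to 1.24 for Hsd3b6 and -1.03 to 1.71 for Scd3. For genotype, 0 members passed in all 20 alternatives, with adjusted p of 0.063 to 0.195 for Fa2h and 0.058 to 0.265 for Scd3. Members called for CD34 ranged from 2 to 9 with 1 array left out and were 5 without the K14Snail CD34, wild type Mts24 or K14Snail Mts24 pool. For Mts24 they ranged from 3 to 15, and were 18 without either CD34 pool and 0 without either Mts24 pool. For the difference between enrichments they ranged from 0 to 3, and were 2 with no pool block, 2 with no block and no filter (also chosen after seeing the data), 2 without the wild type CD34 pool and 0 without either Mts24 pool. For genotype by positive fraction they ranged from 0 to 7, and for genotype by sorting marker 0 passed throughout. The fits of these interactions without a pool could not be made, having no residual degrees of freedom. Counting single-fraction differences at 0.5 gave 20 members for the CD34 positive fraction and 11 for the Mts24 positive one. Median centring shifted an array by at most 0.06 and quantile normalization moved a member's genotype difference by at most 0.15. The cause of these changes was not tested, beyond the fewer arrays of a left-out fit.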
